A study of Mus musculus with 18 samples.

Results

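AQ given in the drinking water was compared with no AQ in the skeletal muscle of wild-type mice on normal chow. The AQ group and the control group held 3 libraries each, 6 of the 18 libraries of the series, and were chosen by their labels alone, with all genes of the deposited table compared. What AQ stands for is not spelled out in the labels, which give neither its dose nor the length of its intake. Mice of both groups were wild type and ate chow for 10 weeks. The remaining groups of the series were wild-type mice on a high-fat diet (HFD) for 10 weeks with or without AQ, and HFD-fed mice of a Nurr1 transgenic line with their wild-type controls. Age, sex, strain, litter, cage, hour of sampling and the muscle taken are not given by the labels. Libraries are labelled as biological replicates 1 to 3 of a group, so the p-values measure the spread between these samples.

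Several systems met in this comparison. SREBP transcription factors, held in the endoplasmic reticulum while sterols are plentiful, switch on the genes of sterol and fatty acid synthesis when released. Perilipins coat the lipid droplets of muscle fibres and fat cells and control how lipases reach the stored triglyceride. In muscle, as elsewhere, the circadian clock runs on BMAL1 (from Arntl) with CLOCK or its relative NPAS2, which drive the Per, Cry and Rev-erb repressor genes, and its genes swing with the hour of sampling. The series is named for the activation in muscle of NURR1, an orphan receptor of the nuclear receptor family that Nr4a2 encodes.

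Levels are read counts scaled to library size (CPM) on the scale the authors deposited, and 3 reads amount to 0.193 to 0.238 CPM in the chow libraries, whose depth was 11730148 to 16082994 reads. Differences are log2 fold changes, AQ minus control, of log2(CPM + 1), with a standard error (SE) from limma, and a gene was called at a Benjamini-Hochberg adjusted p below 0.05 over the 12524 genes tested. Skeletal muscle fibre markers summed to 162200 to 215300 CPM in the control and 195700 to 221000 CPM in the AQ libraries, so muscle RNA dominated all 6. Control replicate 1 stood apart from the other chow libraries, at -24.3 on the first principal component (33.0% of the variance) against -5.01 to 11.3 for the other 5. The libraries also differed in how a gene's level followed the GC content of its transcript. The correlation across genes between GC content and a library's deviation from the mean of the 6 chow libraries was -0.208, -0.137 and -0.170 in the control libraries and 0.106, 0.322 and 0.159 in the AQ libraries. The groups did not overlap in it, though with this reference their mean deviations are opposite in sign by construction.

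Between AQ and control on chow 139 genes were called (1.11% of the genes tested), 105 higher with AQ (0.838%) and 34 lower (0.271%). An unadjusted limma p under 0.05 was found in 1942 genes. Most changes were small, with a median log2 fold change of 0.52 among the higher and -0.43 among the lower genes. In 138 of the 139 genes the AQ and control libraries did not overlap, Per2 being the exception, while over all genes tested 2486 (19.8%) did not overlap. The genes that rose had a median GC content of 56.6%, those that fell 47.3%, and all genes 49.8%. With the GC trend of each library removed, 19 of the 139 genes passed the threshold (0.153% of 12455 genes), 12 of them higher and 7 lower. All 139 kept their sign, with a median log2 fold change of 0.40 for those higher and -0.43 for those lower. As the groups did not overlap in GC trend, its part in these calls and that of AQ cannot be told apart. Without the authors' scaling between libraries 43 genes were called, 28 higher and 15 lower. The count also rested on single libraries, being 34 without control replicate 2 and 22, 13 and 13 without AQ replicates 1, 2 and 3, against 98 without control replicate 1, of which 54 were among the 139. When only the 6 chow libraries were fitted, 12 genes passed.

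**Figure D1:**
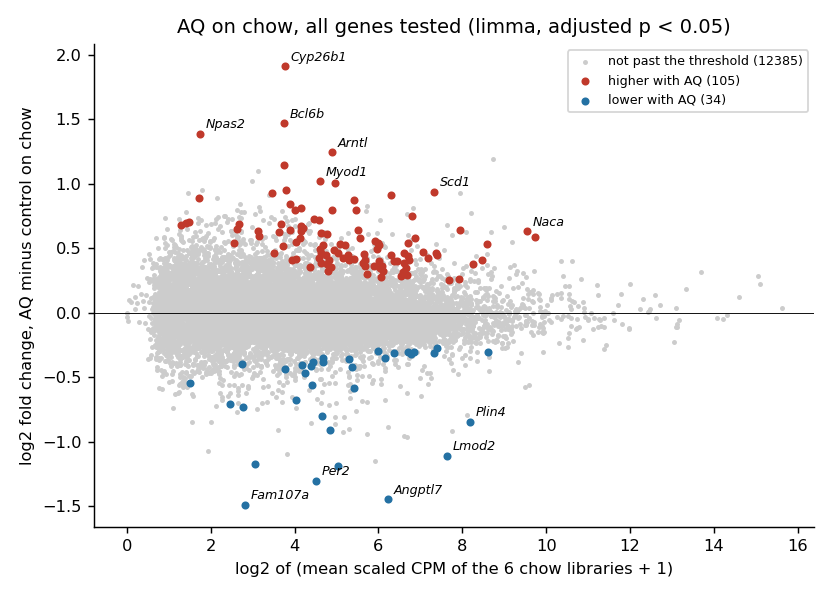
Log2 fold change of AQ minus control on chow (vertical axis) against the log2 of the mean scaled CPM plus 1 of the 6 chow libraries (horizontal axis), with a point for each of the 12524 genes. The 105 genes called higher and the 34 called lower are coloured, and most lie within 1 log2 unit of 0.

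The calls that held in the most settings are described first. Naca, on chromosome 10 from 128035575 to 128048637 (GRCm38), encodes the alpha subunit of the nascent polypeptide-associated complex. Its control libraries lay at 568, 586 and 607 CPM and its AQ libraries at 927, 934 and 871 CPM. The AQ libraries thus lay above the controls with little scatter, at a log2 fold change of 0.63 ± 0.08 (SE; limma adjusted p = 0.00171). Polr2a, the largest subunit of RNA polymerase II, read 79.4, 87.1 and 85.3 CPM without AQ and 122, 124 and 121 CPM with it (0.54 ± 0.07, limma adjusted p = 0.00171). Jup, the junction protein plakoglobin, read 99.6, 94.2 and 86.9 CPM in the controls and 139, 142 and 140 CPM with AQ (0.58 ± 0.08, limma adjusted p = 0.00457). In each of the 3 genes the AQ libraries were higher than all controls by more than the spread within either group.

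Bcl6b, a zinc finger repressor related to BCL6, stood at 5.31, 5.08 and 8.22 CPM in the controls and at 20.2, 17.5 and 18.1 CPM with AQ. This was 3.00-fold in the means (log2 fold change 1.47 ± 0.22, limma adjusted p = 0.00585). Mast4, a microtubule-associated kinase, read 77.9, 92.3 and 74.0 CPM against 147, 114 and 152 CPM with AQ (0.75 ± 0.10, limma adjusted p = 0.00208). Auts2, a nuclear regulator of transcription best known in neurons, read 21.9, 18.2 and 19.3 CPM against 44.6, 33.3 and 45.0 CPM (1.00 ± 0.16, limma adjusted p = 0.00730). AQ replicate 2 was the lowest of the AQ libraries in all 3 genes.

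Naca, Polr2a, Jup, Bcl6b and the perilipin gene Plin4 were called in all 20 other settings tried, and Mast4 in 19. Among the 73 called genes named here by rule, 6 kept their call when each chow library was left out in turn (these 5 and Mast4), 46 kept it in some of the 6 fits and 21 in none, with adjusted p of at most 0.186. Each called gene named below without a further remark belongs to the 46 or the 21. Those whose call held in none of the fits include Srebf2, Scd1, Rara, Cldn5, H2-Aa, H2-Eb1, Bnip3, Cep85l, Ccbe1 and Usp54.

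Lipid synthesis genes were higher with AQ in a few members and not across the pathways. Srebf2, which encodes the sterol-sensing factor SREBP2, lay at 18, 21.4 and 19.2 CPM in the controls and 24.0, 26.6 and 29.4 CPM with AQ (log2 fold change 0.43 ± 0.10, limma adjusted p = 0.0430). It was the only called gene of 7 SREBP regulators, beside 0.838% of all genes called higher. Srebf1 was more scattered, at 58.8, 120 and 87.2 CPM against 128, 104 and 153 CPM, and missed the threshold (0.57 ± 0.30, limma adjusted p = 0.388). Insig1, which retains SREBPs in the endoplasmic reticulum and is itself an SREBP target, read 6.98, 12.4 and 10.7 CPM against 15.6, 13.9 and 15.4 CPM, without overlap but with an adjusted p of 0.103. Srebf1 and Insig1 were named after their values were seen.

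Beside 0.838% of all genes called higher, 1 of 19 cholesterol synthesis genes tested was called. This was Sqle, squalene epoxidase, at 0.793, 0.626 and 1.28 CPM in the controls and 1.90, 1.81 and 2.34 CPM with AQ (0.68 ± 0.15, limma adjusted p = 0.0422), a low gene whose fold change the added pseudocount understates. The list had a median log2 fold change of 0.07, with 12 of 19 members above 0, where all genes had a median of -0.01 and 48.3% above 0. Hmgcs1, the synthase of an early step, named after its values were seen, differed by 0.04 ± 0.08 (limma adjusted p = 0.855). The summed level of the list was 221.8 to 237 CPM in the controls and 228.5 to 231.4 CPM with AQ.

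Fatty acid synthesis and desaturation held 3 called genes of 15, all higher with AQ, beside a background of 0.838% of all genes. Scd1, the desaturase that makes oleate from stearate, had the tightest values. Its controls lay at 107, 105 and 117 CPM and its AQ libraries at 200, 211 and 222 CPM (log2 fold change 0.94 ± 0.20, limma adjusted p = 0.0372). The groups lay far apart compared with the scatter within them, but the spread in the test is shared by all 6 groups. The call held in none of the 6 fits that left out a chow library, with a limma adjusted p of up to 0.122. Fasn, fatty acid synthase, read 24.6, 31.6 and 30.9 CPM against 40.2, 62.8 and 61.2 CPM with AQ (0.87 ± 0.20, limma adjusted p = 0.0436). AQ replicate 1 was the nearest to the controls there. Fads1, the delta-5 desaturase of polyunsaturated fatty acids, read 7.93, 8.97 and 9.44 CPM against 12.3, 14.4 and 17.8 CPM (0.69 ± 0.13, limma adjusted p = 0.0221).

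Over the 15 members the median was 0.19 and 12 lay above 0. Scd2 and Fads2, named after their values were seen, did not overlap between the groups but missed the threshold, with 0.61 ± 0.19 and 0.49 ± 0.19 (limma adjusted p = 0.119 and 0.219). Acly, which supplies cytosolic acetyl-CoA and was also named after its values were seen, differed by 0.22 ± 0.11 (limma adjusted p = 0.382). With the GC trend removed the log2 fold changes of Srebf2, Sqle, Scd1, Fasn and Fads1 were 0.32, 0.70, 0.97, 0.76 and 0.65, and none passed (adjusted p = 0.143, 0.0697, 0.0596, 0.122 and 0.0565).

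**Figure D2:**
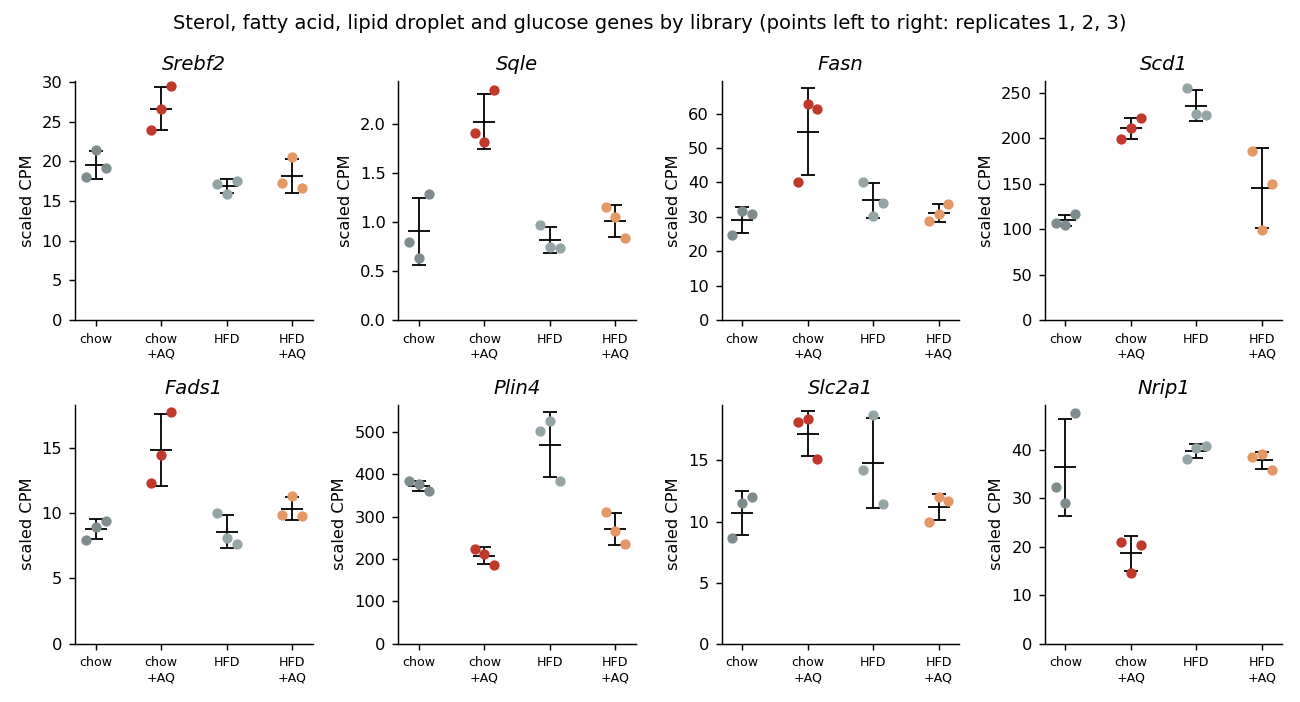
Scaled CPM of 8 genes of sterol and fatty acid synthesis, lipid droplets, glucose uptake and corepression (vertical axes) in the 3 libraries of chow, chow with AQ, HFD and HFD with AQ; points are libraries in the order of their replicate numbers, bars the mean and SD. Scd1 with AQ lies between 200 and 222 CPM on chow, above all controls, and between 99.0 and 186 CPM on HFD, below all controls, while Plin4 is lower with AQ on both diets.

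Plin4, the perilipin 4 gene on chromosome 17 from 56100591 to 56109803 (GRCm38), was the clearest decrease. Its controls read 383, 376 and 360 CPM and its AQ libraries 224, 212 and 187 CPM. The AQ level was 0.557 of the control level (log2 fold change -0.84 ± 0.11, limma adjusted p = 0.00278). All 3 AQ libraries lay below all controls, with a gap wider than either group. The exons of Plin4 overlap those of Hdgfrp2 on the other strand, and whether the counts used strand is not given. Hdgfrp2, named after its values were seen, was at 31.4 to 36.4 CPM in the controls and 37.3 to 40.1 CPM with AQ, a difference in the other direction (0.21 ± 0.08, limma adjusted p = 0.217).

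Plin4 was the only called member of 13 genes of the droplet coat and its lipases, beside 0.271% of all genes called lower. The list had a median of -0.16 and, without control replicate 1, of 0.01. Plin2 differed by 0.04 ± 0.14 and the lipase gene Pnpla2 by 0.06 ± 0.13 (limma adjusted p = 0.911 and 0.851). Plin5, the perilipin that tethers droplets to mitochondria, read 53.0, 19.2 and 20.1 CPM against 16.8, 23.1 and 11.6 CPM, so its difference of -0.70 ± 0.31 (limma adjusted p = 0.283) came with control replicate 1 as the high library. Plin2, Pnpla2 and Plin5 were named after their values were seen. Adipocyte markers summed to 2184 to 3243 CPM in the controls and 2656 to 2715 CPM with AQ, which overlapped, and none of the 10 tested was called.

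Fatty acid uptake and oxidation genes lay below 0 in 28 of 30 members, with a median of -0.21 and none called. This pattern rested on 1 library. The 30 genes summed to 10640 CPM in control replicate 1, to 6301 and 6174 CPM in the other controls and to 6248, 6659 and 5752 CPM with AQ, and the median was -0.02 without control replicate 1, -0.13 without AQ replicate 3 and -0.33 without either other control. The members with the smallest p were the isomerase genes Eci2 (-0.35 ± 0.13, limma adjusted p = 0.213) and Eci1 (-0.32 ± 0.12, 0.224), whose groups overlapped. Triglyceride synthesis had no called gene of 9, with the acyltransferase genes Dgat2 at -0.69 ± 0.28 and Agpat3 at -0.18 ± 0.09 (limma adjusted p = 0.244 and 0.327). The 24 nuclear-encoded respiratory chain genes had a median of -0.04 with none called, Sdhd being lowest at -0.31 ± 0.13 (limma adjusted p = 0.265) and Uqcrc2 at -0.22 ± 0.11 (0.327).

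Among 19 nuclear receptors and metabolic coregulators, with a median of 0.04, Nrip1 fell. Nrip1, which encodes the corepressor RIP140 of oxidative metabolism, read 32.4, 29.1 and 47.7 CPM in the controls and 21.1, 14.6 and 20.4 CPM with AQ (log2 fold change -0.91 ± 0.17, limma adjusted p = 0.0216). The AQ and control libraries did not overlap, and with the GC trend removed the log2 fold change was -0.84, which did not pass (0.0575).

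The Nr4a genes did not pass the threshold. Nr4a2, which encodes NURR1, read 1.67, 1.11 and 1.54 CPM in the controls and 4.79, 1.25 and 2.05 CPM with AQ, so that only AQ replicates 1 and 3 exceeded the controls (0.49 ± 0.27, limma adjusted p = 0.400). Nr4a1 read 164, 170 and 233 CPM against 354, 165 and 251 CPM (0.39 ± 0.22, limma adjusted p = 0.424), again with AQ replicate 1 highest and AQ replicate 2 among the controls. Nr4a3 read 2.93, 3.34 and 1.99 CPM against 4.02, 3.56 and 4.03 CPM (0.39 ± 0.38, limma adjusted p = 0.668), where the groups did not overlap but the spread over all 6 groups was wide. Ppara and Ppargc1a, named after their values were seen, had AQ libraries below all controls without passing, at -0.94 ± 0.29 and -0.68 ± 0.26 (limma adjusted p = 0.128 and 0.224).

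In glucose handling 1 gene of 12 was called, beside 0.838% of all genes called higher. Slc2a1, the glucose transporter GLUT1, read 8.64, 11.5 and 12 CPM in the controls and 18.1, 18.4 and 15.1 CPM with AQ (0.64 ± 0.14, limma adjusted p = 0.0422). Slc2a4, the insulin-responsive GLUT4 of muscle, read 747, 742 and 760 CPM against 737, 738 and 678 CPM (-0.06 ± 0.11, limma adjusted p = 0.834). Pfkfb3, which makes the activator of phosphofructokinase, had a log2 fold change of 1.19 ± 0.37 that missed the threshold (limma adjusted p = 0.124), with controls at 183, 223 and 366 CPM and AQ libraries at 851, 365 and 574 CPM. Slc2a4 and Pfkfb3 were named after their values were seen. Insulin signalling (12 genes) and glycolysis (10 genes) had no called member, with Pik3r1 at -0.39 ± 0.20 (limma adjusted p = 0.384), and Aldoa at 0.32 ± 0.16 and Pkm at 0.22 ± 0.12 (0.335 and 0.403).

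The clock activators Arntl and Npas2 rose and the repressor Per2 fell with AQ, in genes whose control libraries were far apart. Arntl read 29.3, 17.5 and 7.83 CPM in the controls and 36.1, 36.9 and 45.8 CPM with AQ (log2 fold change 1.24 ± 0.28, limma adjusted p = 0.0422). Npas2 read 1.82, 0.696 and 0.257 CPM against 3.17, 3.56 and 4.69 CPM (1.39 ± 0.26, limma adjusted p = 0.0216). In both genes control replicate 1 was the nearest to the AQ libraries and control replicate 3 the farthest. Per2 read 14.1, 36.2 and 46.3 CPM against 15, 10.3 and 8.79 CPM (-1.30 ± 0.30, limma adjusted p = 0.0440), and here control replicate 1 lay among the AQ libraries. Npas2 passed with the GC trend removed (limma adjusted p = 0.0446), while Arntl and Per2 did not (0.0693 and 0.0697).

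The remaining clock genes did not pass. Clock and the ROR genes made up the rest of the 5 activators, and Per2 was the only called gene of 10 repressors, beside 1.11% of all genes called. Nr1d1, the Rev-erb alpha gene, read 154, 267 and 109 CPM against 328, 307 and 310 CPM (0.93 ± 0.28, limma adjusted p = 0.117), and its relative Nr1d2 139, 189 and 193 CPM against 136, 116 and 120 CPM (-0.47 ± 0.11, 0.0530), so these relatives differed in direction. The output factors Dbp, Tef, Hlf and Nfil3 all lay below 0, with a median of -0.33 and none called. The median was -0.09 without control replicate 3 and -0.64 without control replicate 1. The smallest p were those of Tef, at -0.35 ± 0.15, and Hlf, at -0.32 ± 0.24 (limma adjusted p = 0.272 and 0.560). Nr1d1, Nr1d2 and Dbp were named after their values were seen. The log2 ratio of Arntl to Dbp, used as a score of clock phase, was -0.646, -2.89 and -4.37 in the controls and -1.62, -1.12 and -0.240 in the AQ libraries, which overlapped. With this score as a covariate 120 genes were called, 84 of them higher, and 52 of the 120 were among the 139. The part of the hour of sampling in these differences was not tested.

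**Figure D3:**
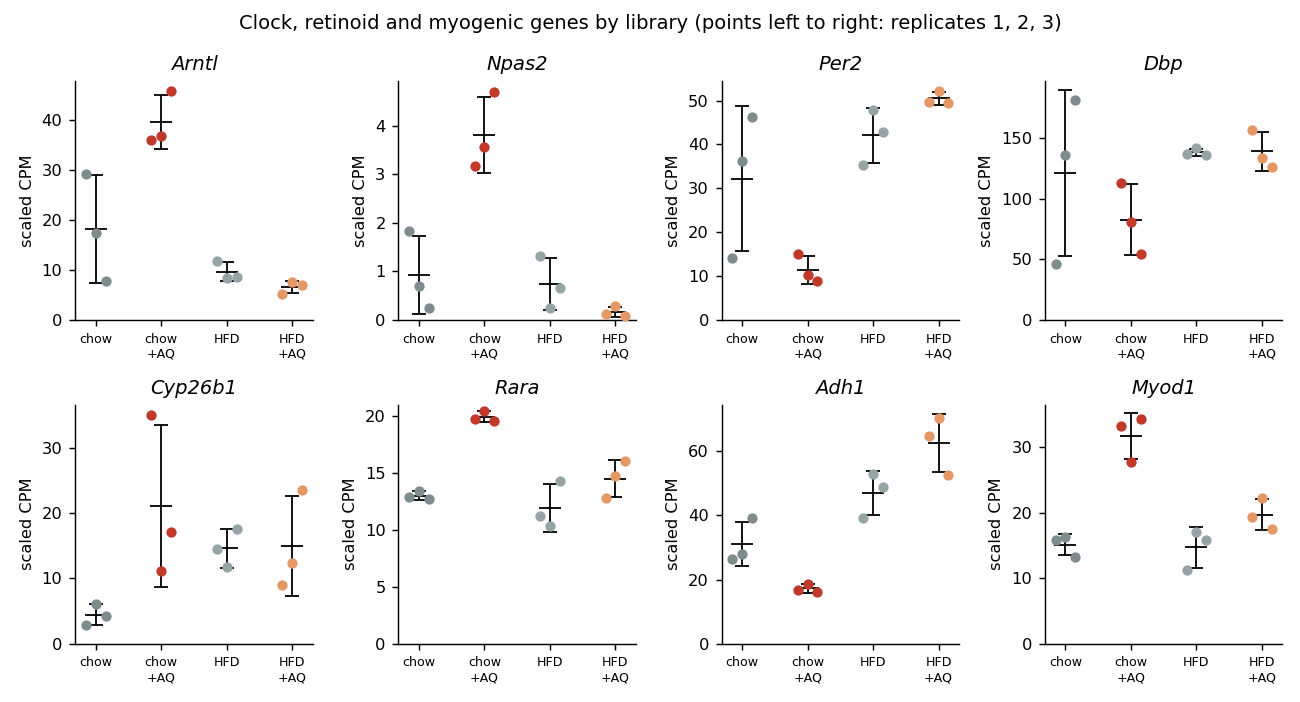
Scaled CPM of 4 clock genes, 3 retinoid genes and Myod1 (vertical axes) in the 3 libraries of chow, chow with AQ, HFD and HFD with AQ, with the mean and SD as bars. The chow controls spread from 7.83 to 29.3 CPM in Arntl and from 14.1 to 46.3 CPM in Per2, while the AQ libraries on chow lie together at 36.1 to 45.8 and 8.79 to 15 CPM.

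The promoter sequences of the called sterol, fatty acid and clock genes were searched for the sterol element TCACNCCAC and the E-box CACGTG on both strands, from 250 bases before to 50 after the start (RefSeq, GRCm38.p6). Of 8 such genes 4 had a window (Srebf2, Fasn, Arntl and Npas2), and none held either motif, which 1.44% and 8.09% of 27025 genes hold. AGTAGGTCA, a form of the element bound by the ROR and Rev-erb receptors, was found in an Arntl window after the windows had been read and after 9 motifs had been searched, so the match is shown as a description and nothing is drawn from it. It is held by 0.222% of genes with a window. The stretch lies at chr7:113207529-113207556 on the plus strand, with the element in capitals, beginning at base 29 counted from the start site:
Arntl: gaaggcagaaAGTAGGTCAgggacggag

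Retinoid genes changed in 3 of 12 members, 2 higher and 1 lower, beside 1.11% of all genes called. Cyp26b1, which degrades retinoic acid, rose from 2.93, 6.12 and 4.30 CPM in the controls to 35.0, 11.2 and 17.1 CPM with AQ (log2 fold change 1.91 ± 0.37, limma adjusted p = 0.0244). The AQ libraries were themselves far apart, and the lowest of them lay above the highest control. Rara, retinoic acid receptor alpha, was very even, at 12.8, 13.4 and 12.7 CPM against 19.7, 20.4 and 19.6 CPM (0.58 ± 0.12, limma adjusted p = 0.0293). Adh1, an alcohol dehydrogenase that oxidises retinol, fell, from 26.4, 28.0 and 39.1 CPM to 16.7, 18.8 and 16.3 CPM (-0.80 ± 0.18, limma adjusted p = 0.0419). With the GC trend removed the log2 fold changes were 1.81, 0.45 and -0.82, and none of the 3 passed (limma adjusted p = 0.0693, 0.127 and 0.0699).

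Myod1 led the muscle regulators. This master factor of the myogenic lineage read 15.8, 16.4 and 13.3 CPM in the controls and 33.3, 27.7 and 34.3 CPM with AQ (log2 fold change 1.02 ± 0.17, limma adjusted p = 0.0165), and it still passed with the GC trend removed (0.0498). The 12 myogenic factors had a median of 0.15, with 9 above 0, and a median of 0.03, 0.26 and 0.08 without AQ replicates 1, 2 and 3. Of 8 satellite cell markers the only called gene was Cdh15, M-cadherin, at 17.4, 19.2 and 23.4 CPM against 28.3, 29.8 and 29.1 CPM (0.53 ± 0.09, limma adjusted p = 0.0128), and the list had a median of 0.00. Cdh15 did not pass with the GC trend removed (limma adjusted p = 0.0693). Over all genes 0.838% were called higher.

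Lmod2, which nucleates and lengthens the thin filaments of actin, fell. It read 250, 334 and 231 CPM in the controls and 136, 144 and 97.2 CPM with AQ (-1.11 ± 0.21, limma adjusted p = 0.0221; 0.0468 with the GC trend removed). It was, beside 0.271% of all genes called lower, the only called gene of 16 in sarcomere assembly, whose median was -0.03. Its relative Lmod3 differed by -0.23 ± 0.10 and the nebulin gene Neb by 0.04 ± 0.13 (limma adjusted p = 0.25 and 0.922), both named after their values were seen. None of 20 myosin and fibre-type genes was called, the nearest being Myl3 at -0.45 ± 0.21 and Casq2 at -0.52 ± 0.29 (limma adjusted p = 0.327 and 0.413).

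Of 15 endothelial markers 14 lay above 0, with a median of 0.20, and 2 were called, both higher with AQ, beside 48.3% above 0 and 0.838% called higher over all genes. The median was 0.12 without AQ replicate 2 and 0.31 without control replicate 1. Cldn5, the claudin of endothelial tight junctions, read 5.15, 7.30 and 7.58 CPM against 12.5, 13.0 and 14.9 CPM (0.93 ± 0.21, limma adjusted p = 0.0451), and Vwf, von Willebrand factor, 43.8, 39.5 and 42.4 CPM against 57.9, 59.3 and 55.7 CPM (0.45 ± 0.09, 0.0250). Neither Cldn5 nor Vwf passed with the GC trend removed (limma adjusted p = 0.131 and 0.0914). Cd93, an endothelial surface receptor outside the list, read 59.1, 46.8 and 47.3 CPM against 69.5, 82.6 and 71.5 CPM (0.54 ± 0.10, limma adjusted p = 0.0208; 0.0185 with the GC trend removed). The summed marker level was 576.9 to 755 CPM in the controls and 726.9 to 854.8 CPM with AQ, an overlap that came from control replicate 1. In bulk tissue more cells of a type and more RNA per cell cannot be told apart. Bcl6b was the only called gene of 16 in angiogenic signalling, where Apln and Aplnr, named after their values were seen, missed the threshold at 0.75 ± 0.18 and 0.72 ± 0.24 (limma adjusted p = 0.0564 and 0.158).

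Leukocyte markers lay above 0 in 13 of 14 members, with a median of 0.41, and 2 were called higher with AQ, beside 48.3% above 0 and 0.838% called higher over all genes. Without AQ replicate 2 the median was 0.20. Among the markers of any cell type in the deposited table none was at 0 in all chow libraries, which tells little, as a chow library had only 3 to 6 genes at 0. That table held 14 of 17 listed leukocyte, 10 of 12 adipocyte and 2 of 6 erythroid markers. H2-Aa read 15.1, 16.2 and 15.1 CPM against 22.6, 33.7 and 23.5 CPM (0.72 ± 0.16, limma adjusted p = 0.0430), and H2-Eb1 10.7, 10.4 and 11.1 CPM against 17.5, 25.4 and 16.4 CPM (0.80 ± 0.18, 0.0422). Both encode chains of the class II histocompatibility molecules that present antigen, and Cd74, their invariant chain, named after its values were seen, just missed the threshold at 0.83 ± 0.20 (limma adjusted p = 0.0581). The 14 markers summed to 223.8 to 229.5 CPM in the controls and 276.9, 390.8 and 286.2 CPM with AQ, with AQ replicate 2 highest. Neither call held in any fit that left out a chow library. Cd83, another surface protein of antigen-presenting cells, read 1.19, 0.835 and 1.41 CPM against 2.40, 2.86 and 2.20 CPM (0.70 ± 0.15, limma adjusted p = 0.0393), and Nfkb2 12.8, 13.9 and 12.8 CPM against 19.2, 24.4 and 20.6 CPM (0.66 ± 0.12, 0.0208).

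Interferon-induced genes lay above 0 in 15 of 16 members with a median of 0.29 and none called, Oasl2 at 0.63 ± 0.28 and Ifih1 at 0.36 ± 0.15 (limma adjusted p = 0.290 and 0.243). Without AQ replicate 2 their median was 0.14, and without control replicate 3 it was 0.19. Fibroblast and matrix markers lay above 0 in 13 of 16, with a median of 0.25 and none called. Their median was 0.15 without control replicate 3 and 0.16 without AQ replicate 2. Fbn1, fibrillin 1, read 80.7, 86.0 and 60 CPM against 113, 142 and 129 CPM (0.76 ± 0.21, limma adjusted p = 0.0871), and Fn1, fibronectin, 114, 123 and 122 CPM against 151, 175 and 165 CPM (0.45 ± 0.12, 0.0954). The groups of both did not overlap. Both passed in DESeq2 (adjusted p = 0.0209 and 0.0358) but not in edgeR (adjusted p = 0.0974 for each). With the GC trend removed both missed the threshold as well (limma adjusted p = 0.134 and 0.169). Outside the lists, Col15a1, a basement membrane collagen, read 62.5, 55.6 and 43.2 CPM against 89.4, 110 and 104 CPM (0.91 ± 0.18, limma adjusted p = 0.0286), and Cd248, endosialin of pericytes and fibroblasts, 14.3, 18.3 and 18.8 CPM against 25.4, 33.8 and 27.4 CPM (0.72 ± 0.13, 0.0216). The part of a different cell makeup in these results was not tested.

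**Figure D4:**
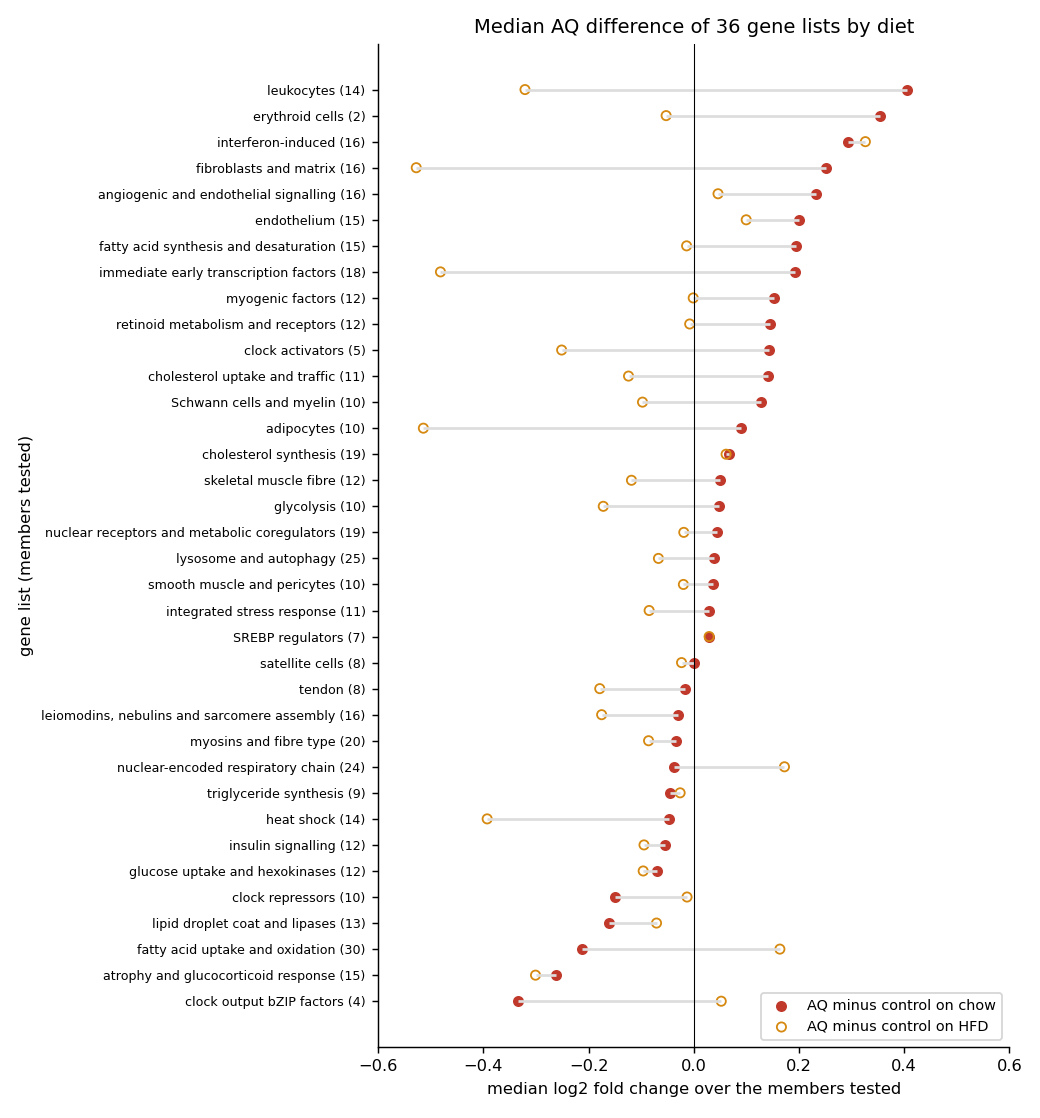
Median log2 fold change of AQ minus control over the tested members of 36 gene lists (number of members in brackets), with filled points for chow and open points for HFD. Leukocyte markers stand highest on chow at 0.41 (0.20 without AQ replicate 2) and clock output factors lowest at -0.33 (-0.09 without control replicate 3), and leukocyte and fibroblast markers lie on opposite sides of 0 on the 2 diets.

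No gene was called in the lists of atrophy and glucocorticoid response (15 genes), immediate early factors (18), heat shock (14), integrated stress response (11), smooth muscle and pericytes (10), Schwann cells (10), tendon (8) and erythroid cells (2). The members with the smallest p were Fbxo32 (0.67 ± 0.21) and Fkbp5 (-0.88 ± 0.36), Junb (0.82 ± 0.28) and Ier2 (0.44 ± 0.19), Bag3 (0.49 ± 0.14) and Hspd1 (-0.27 ± 0.12), and Trib3 (-0.38 ± 0.13) and Shmt2 (0.23 ± 0.08), with limma adjusted p of 0.107 to 0.286. In the marker lists they were Cspg4 (0.34 ± 0.14) and Rgs5 (-0.27 ± 0.11), Ncmap (0.43 ± 0.26) and Prx (0.27 ± 0.25), Mkx (-0.37 ± 0.20) and Kera (-0.74 ± 0.33), and Alas2 (0.79 ± 0.23) and Ank1 (-0.09 ± 0.11), with adjusted p of 0.106 to 0.757. Of 25 lysosome and autophagy genes the only called gene was Bnip3, a mitophagy receptor, which read 94.3, 85.4 and 91.0 CPM against 76.7, 66.0 and 75.3 CPM (-0.31 ± 0.07, limma adjusted p = 0.0442). In all, 17 of the 36 lists held a called gene, and 26 of the 139 called genes were in a list. The latter is a share of the called genes, unlike the 1.11% called, which is a share of the genes tested. The lists differ in size and were chosen with earlier results of these data known, so neither 17 of 36 nor 26 of 139 is a measure of breadth.

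Further genes that rose stood in no list. Pim1, a growth-promoting kinase, read 6.03, 9.39 and 6.42 CPM against 22.4, 11.4 and 19.3 CPM (1.15 ± 0.24, limma adjusted p = 0.0293), and Nedd9, a scaffold of focal adhesions, 13.1, 8 and 7.96 CPM against 24.0, 17.1 and 13.5 CPM (0.84 ± 0.19, 0.0422). Control and AQ libraries nearly touched in both, and neither gene passed with the GC trend removed (limma adjusted p = 0.0733 and 0.0693). Slc6a2, the noradrenaline transporter, read 1.51, 1.32 and 1.09 CPM against 3.38, 3.69 and 2.78 CPM (0.89 ± 0.16, limma adjusted p = 0.0212; 0.0292 with the GC trend removed). Anpep, aminopeptidase N, and Creb3l2, a transcription factor of the secretory pathway, also passed with the GC trend removed, at 0.63 ± 0.11 and 0.55 ± 0.10 with it left in (limma adjusted p = 0.0208 and 0.0215). Trp53i11, Otub2, Ahdc1, Ypel2, Zhx2, Syt3 and March4 rose by 0.64 to 0.95. With the GC trend removed their log2 fold changes were 0.56 to 0.86, and none passed.

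Other genes that fell also stood in no list. Angptl7, a secreted angiopoietin-like protein, read 71.9, 121 and 137 CPM in the controls and 33.6, 47.7 and 34.7 CPM with AQ (-1.45 ± 0.28, limma adjusted p = 0.0221). Fam107a, a stress-responsive actin-binding protein, read 15.6, 6.4 and 6.81 CPM against 2.61, 3.14 and 1.90 CPM (-1.49 ± 0.30, limma adjusted p = 0.0286). Slc4a8, a sodium-driven bicarbonate exchanger, read 13.1, 9.74 and 8.86 CPM against 3.52, 4.11 and 4.61 CPM (-1.17 ± 0.20, limma adjusted p = 0.0165). Angptl7 and Slc4a8 passed with the GC trend removed (0.0444 and 0.0199), and Fam107a, at -1.48, did not (0.0575). Rasl11b, a small GTPase-like protein, Dusp7, a phosphatase of ERK, and Pdxk, pyridoxal kinase, fell by 0.71 ± 0.12, 0.56 ± 0.11 and 0.47 ± 0.09 (limma adjusted p = 0.0167, 0.0265 and 0.0216), and all 3 had an adjusted p of 0.0145 with the GC trend removed. Each of the 3 had its highest AQ library below its lowest control.

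Cep85l fell from 51.2, 34.6 and 47.3 CPM to 21.4, 14.4 and 20.9 CPM (-1.19 ± 0.25, limma adjusted p = 0.0360). The phospholamban gene Pln lies within it on the other strand and, named after its values were seen, was at 3.33 to 3.97 CPM against 1.90 to 3.00 CPM (adjusted p = 0.112), so with strand not given the reads of the overlap cannot be assigned. Ccbe1, Usp54 and Slc43a3 fell by 0.73 ± 0.17, 0.68 ± 0.16 and 0.58 ± 0.12 (limma adjusted p = 0.0461, 0.0432 and 0.0265). Rps7 fell by 0.54 ± 0.13 (0.0464), but this ribosomal gene has near-identical copies and lay at 1.25 to 2.89 CPM, so its value is uncertain. Lsm3, Pon3, Mrpl46, Pan3, B3galt1, Uros, Plcb4, Trim23, Ap4e1, Bclaf1, Srsf1, Sf3b1, Rbm39 and Ahnak fell by 0.31 to 0.44. With the GC trend removed their log2 fold changes were -0.45 to -0.23, and none passed.

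**Figure D5:**
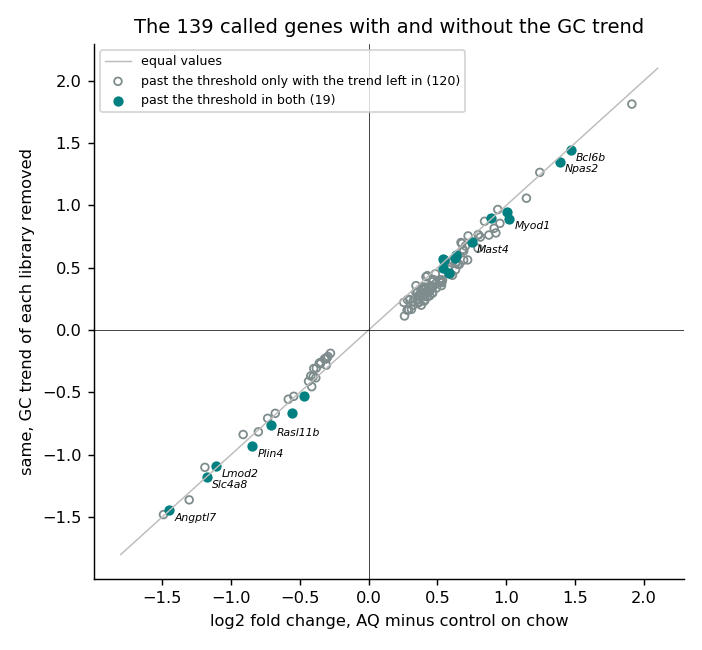
Log2 fold change of the 139 called genes with each library's GC trend removed (vertical axis) against the value with it left in (horizontal axis); filled points are the 19 genes past the threshold in both, open points the other 120, and the line marks equal values. All 139 genes keep their sign, and Bcl6b, Npas2 and Plin4 are among the filled points.

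AQ was also given to mice on HFD, in libraries that share none with the chow comparison. There 6 genes were called (0.0479% of 12524), and Plin4 was the only gene called on both diets. On HFD it read 501, 526 and 383 CPM without and 310, 266 and 236 CPM with AQ (log2 fold change -0.79 ± 0.11, limma adjusted p = 0.0202), and the difference between the diets in the effect of AQ was 0.06 ± 0.16 (limma adjusted p = 0.913). Of the 105 genes higher with AQ on chow 46 lay above 0 on HFD, with a median of -0.03, and of the 34 lower genes 20 lay below 0, with a median of -0.04. Bcl6b and Lmod2 kept their direction on HFD, without overlap between AQ and control libraries, but were not called there. They differed by 0.71 ± 0.22 and -0.71 ± 0.21 (limma adjusted p = 0.192 and 0.168). The effect of AQ differed between the diets in 89 genes (0.711%). They included 37 of the 139 genes, 32 higher and 5 lower on chow, a count that is not independent of how those genes were chosen, since the chow contrast enters the difference. The count of 89 fell to 18 with the GC trend removed, to 48 without chow control replicate 3, to 44, 9 and 5 without AQ replicates 1, 2 and 3 on chow, to 22 without HFD control replicate 1, and to 16, 35 and 3 without AQ replicates 1, 2 and 3 on HFD. Without the authors' scaling 32 genes were called, 13 of them with the more positive effect on HFD, against 16 of the 89.

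Naca and Polr2a, which rose on chow, showed no such rise on HFD. Naca read 525, 527 and 487 CPM in HFD controls and 436, 452 and 465 CPM with AQ, and the effect of AQ on HFD was lower than on chow by -0.82 ± 0.11 on the log2 scale (limma adjusted p = 0.00705). Polr2a read 82.6, 82.1 and 88.4 CPM against 82.0, 79.0 and 75.6 CPM (difference -0.63 ± 0.09, limma adjusted p = 0.0100). Scd1 read 255, 227 and 226 CPM in HFD controls and 186, 99.0 and 150 CPM with AQ (difference -1.68 ± 0.29, limma adjusted p = 0.0223). Its HFD controls thus stood near the level of chow with AQ, and the HFD libraries with AQ lay below them. Cyp26b1 was likewise at 14.5, 11.7 and 17.6 CPM in HFD controls and at 8.98, 12.4 and 23.6 CPM with AQ on HFD, within or near the range of chow with AQ (difference -1.97, limma adjusted p = 0.0917).

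Arntl and Per2 on HFD lay near the levels of chow control replicate 3, with and without AQ. Arntl read 11.8, 8.38 and 8.69 CPM in HFD controls and 5.29, 7.70 and 6.93 CPM with AQ, and Per2 35.4, 47.8 and 42.9 CPM against 49.8, 52.2 and 49.5 CPM. The difference in the effect of AQ was -1.72 ± 0.40 for Arntl and 1.57 ± 0.42 for Per2, which missed the threshold (limma adjusted p = 0.0522 and 0.0932), and -1.93 ± 0.37 for Npas2, which passed (0.0287). The fibroblast and leukocyte lists, with medians of 0.25 and 0.41 on chow, had medians of -0.53 and -0.32 on HFD, and the difference between diets was called in 4 of 16 and 0 of 14 members, beside 0.711% of all genes. The fibroblast markers summed to 3958, 2635 and 2237 CPM in HFD controls and 1741, 2023 and 2256 CPM with AQ, so HFD control replicate 1 was the high library. For Fbn1 the difference between diets was -1.68 ± 0.29 and for Fn1 -0.98 ± 0.18 (limma adjusted p = 0.0232 and 0.0253). The interferon-induced list had a similar median on both diets, 0.29 on chow and 0.33 on HFD, where all 16 members lay above 0, beside 6319 of 12524 genes.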

How the data were processed

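Mouse skeletal muscle RNA was sequenced from a single end, with 50 bases a read, per the labels' protocols. The authors deposited a table of 12558 genes by symbol in 18 libraries. The authors deposited a signal in CPM that was scaled between libraries. All values (100%, within 1e-06 reads) divide into whole reads by a library's own factor, so counts were recovered. TopHat2 2.0.12, edgeR, GRCm38 and mm10 are named in the submitters' processing notes, but counting tool, annotation and strand use are not given in the sources consulted.

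Groups were compared with limma 3.58.1 (R 4.3.3; lmFit, trended eBayes, two-sided) on log2(value + 1), a pseudocount of 1, with the 6 groups in a single fit (12 residual degrees of freedom), over the 12524 genes that reached 1 CPM in 3 or more libraries. The fit was planned for plain CPM and applied to the scaled signal unchanged. Alternatives included edgeR 4.0.16 and DESeq2 1.42.0 on the recovered counts, which called 146 and 280 genes on chow. GC content is that of the longest GENCODE M21 transcript (12488 genes matched, 464 by older symbols), and its trend was removed by loess with span 0.3. The fitting code was tested on simulated data. Libraries of the same chow group differed by more than sampling noise (chi-square per degree of freedom at least 5.54). Floors cover counting error only.

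The comparison, the 36 gene lists and the naming rule were chosen with earlier results of these data known. Named were the 30 largest non-overlapping changes each way with a mean of at least 2 CPM, called genes in lists, up to 2 members with the smallest p of lists without a call, the Nr4a genes, and genes called with the GC trend removed. Some further genes under that rule are left unreported.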

Additional observations from a re-analysis of the deposited data

Results flagged for a closer look

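For 21 of the named genes the effect of AQ on HFD differed from its effect on chow by the limma test of that difference over 12524 genes (adjusted p of at most 0.0499). Each value here is the log2 effect on HFD minus that on chow. It was negative, with a rise on chow, for Npas2 (-1.93), Scd1 (-1.68), Fbn1 (-1.68), Pim1 (-1.48), Col15a1 (-1.35), Nedd9 (-1.30), Auts2 (-1.30), Cd248 (-1.0), Slc2a1 (-0.99), Fn1 (-0.98), Naca (-0.82), Mast4 (-0.80), Anpep (-0.75), Cdh15 (-0.68), Polr2a (-0.63) and Jup (-0.53), of which Fbn1 and Fn1 did not pass on chow alone. It was positive, with a fall on chow, for Slc4a8 (1.46), Adh1 (1.21), Rasl11b (0.91), Dusp7 (0.75) and Plcb4 (0.65). None of the 21 genes was called for AQ on HFD alone. All 21 were named by their contrast on chow, Fbn1 and Fn1 as the members with the smallest p of their list, so a smaller effect on HFD is not independent of how they were chosen. The libraries of HFD with AQ differed in GC correlation, from -0.311 in replicate 3 to 0.181 in replicate 2. These values are deviations from the mean of these libraries and their HFD controls, a reference other than that of the chow libraries. With the GC trend removed 18 genes differed between the diets in place of 89.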

How the results depend on the processing

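All 139 genes called on chow kept their sign in each of 20 alternatives, 130 were called by limma, edgeR and DESeq2, and 5 were called in every alternative. Counts on chow (139) and for the difference between diets (89) moved by more than 1.5 times under some settings: DESeq2 gave 280 and 229, eBayes without a trend 52 and 31, no TMM scaling 43 (28 higher, 15 lower) and 32, the GC trend removed 19 (12 higher, 7 lower) and 18, and the GC trend removed with a replicate block 34 and 55. Fitting only the 6 chow libraries gave 12 on chow, and the clock score as a covariate gave 30 between diets. Counts were 13 to 113 on chow and 3 to 103 between diets when each library was left out in turn; a group left with 2 libraries borrows its spread from the rest. The cause was not tested, beyond fewer samples in those fits. Same-numbered libraries had correlations of their deviations of -0.21, 0.003 and 0.15 on chow and -0.10, 0.11 and -0.02 on HFD. With 3 libraries a group these values cannot tell whether replicate numbers pair the libraries. With the replicate block 120 and 107 genes were called. Of the 73 named called genes, 54 lost the call with the GC trend removed, 52 with the clock score, 63 with only the chow libraries, 42 without TMM scaling, 17 with the block, 2 in edgeR and 1 in DESeq2, where some had no adjusted p. Other pseudocounts, filters and median-ratio scaling left both counts within 1.5 times. Depth limits genes near the floor of 3 reads, such as Npas2 in control replicate 3.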
